A study of Mus musculus with 10 samples.

Results

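Dlx2 is a homeodomain transcription factor that, with Dlx1, is needed for forebrain GABAergic neurons to develop and survive. Its binding at 9 genes of neuron survival and programmed cell death was examined in chromatin immunoprecipitation and sequencing (ChIP-seq) data from mouse brain. The genes are Igf1, Bdnf, Ntrk2, Akt1, Bcl2, Bcl2l1, Mcl1, Bcl2l11 and Bax, 9 of 21887 protein-coding genes on the assembled chromosomes. A region was assigned to a gene when its summit, the position of highest enrichment, lay inside the gene body or within 50 kb of either end. By this rule 37 regions belonged to the 9 genes, among the 25667 of the 5 lists together.

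The labels give 5 libraries precipitated with an antibody against Dlx2. They come from the cortex and the olfactory bulb at postnatal day 3 (P3) and from the cortex, the olfactory bulb and the basal ganglia at embryonic day 16 (E16). Dissected tissue was fixed with formaldehyde, and the chromatin was sheared into fragments of 300 to 1000 bp. Each tissue and age has 1 Dlx2 library and 1 input library, and the inputs were not analysed here. The labels used here give no strain, genotype or sex, and no number of animals per library. With 1 library per group no difference between tissues or ages has a replicate check, and no test was made. The series' title names the survival of interneurons among the subjects of the study, which is the question these genes bear on.

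Developing neurons live or die by the balance of a few interacting proteins. Secreted factors such as brain-derived neurotrophic factor and insulin-like growth factor 1 activate receptor kinases, which signal through PI3 kinase to the kinase AKT. AKT restrains the pro-death members of the BCL-2 family, whose pore-forming effectors BAX and BAK permeabilise the outer mitochondrial membrane unless BCL-2, BCL-XL or MCL-1 hold them back. Many cortical interneurons are lost by BAX-dependent death in the first postnatal weeks.

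Counts at the genes followed the length of the lists. The P3 cortex list held 2 summits at 2 of the 9 genes among 2139 regions, and the P3 olfactory bulb list held 0 among 734. At E16 the cortex list held 12 summits at 4 genes among 6333 regions, the olfactory bulb list 1 summit at 1 gene among 1666, and the basal ganglia list 22 summits at 8 genes among 14795. As a share of all regions these were 0.935 per 1000 in the P3 cortex (exact Clopper-Pearson 95% interval 0.113 to 3.37) and 0 in the P3 bulb (0 to 5.01 by the same method, and up to 4.09 by the limit of 3 counts). They were 1.89 per 1000 in the E16 cortex (0.979 to 3.31), 0.6 in the E16 bulb (0.0152 to 3.34) and 1.49 in the E16 basal ganglia (0.932 to 2.25). All 5 Clopper-Pearson intervals overlapped, and they cover counting error only. They treat each summit as separate and may be too narrow. At Akt1 alone lay 5 of the 12 E16 cortex summits and 5 of the 22 E16 basal ganglia summits. In dissected tissue, fewer cells that carry Dlx2 and less binding per cell cannot be told apart. Read depth is unknown, so a gene without a summit is one where nothing passed the authors' calling threshold, which does not show that Dlx2 was absent.

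**Figure D1:**
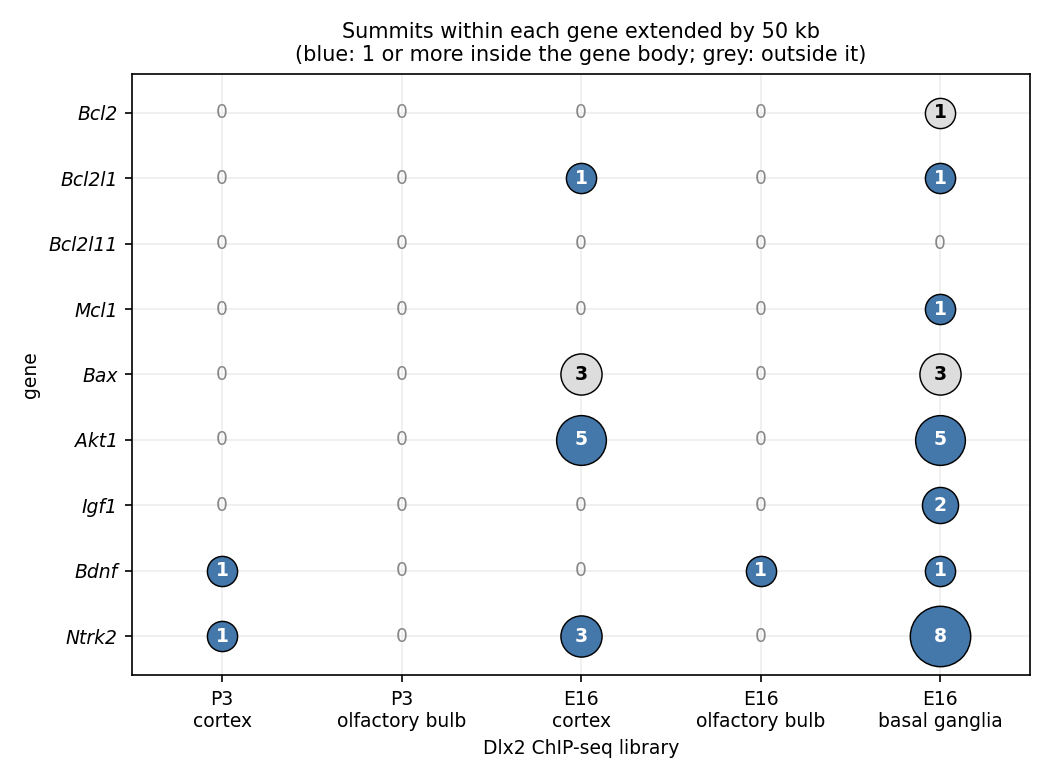
Number of Dlx2 summits at each of the 9 genes (rows) in each library (columns), within the gene body extended by 50 kb. Blue circles have 1 or more summits inside the gene body, grey circles have theirs outside it, and 0 marks no summit; the E16 basal ganglia column holds 22 summits at 8 genes and the P3 olfactory bulb column holds 0.

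The share of the 9 genes with a summit is best read beside the share of all protein-coding genes with one by the same rule. In the P3 cortex 2 of 9 genes (22.2%) had a summit, against 12.4% of all protein-coding genes. In the P3 bulb it was 0 of 9 against 3.98%, in the E16 cortex 4 of 9 (44.4%) against 28.7%, and in the E16 bulb 1 of 9 (11.1%) against 6.62%. In the E16 basal ganglia 8 of 9 (88.9%) stood beside 42.4% of all protein-coding genes. Long genes hold more summits, and among genes from 0.5 to 2 times the length of each of the 9 the mean share with a summit was 15.6%, 5.4%, 30%, 9.33% and 49.5% for the P3 cortex, P3 bulb, E16 cortex, E16 bulb and E16 basal ganglia. Inside the gene body itself, 2 of the 9 genes had a summit in the P3 cortex (3.77% of all protein-coding genes), 0 in the P3 bulb (1.43%), 3 in the E16 cortex (11.2%), 1 in the E16 olfactory bulb (2.69%) and 6 in the E16 basal ganglia (17.9%). For genes from 0.5 to 2 times the length of each, the mean share with a summit in the body was 6.75%, 2.62%, 14.1%, 4.97% and 26.9% in the same order of lists. The E16 basal ganglia list was thus the one in which most of the 9 genes had a region, and 1 gene more or less moves each of these shares by 11.1 percentage points.

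The regions at these genes had fold enrichments close to the medians of their lists. Fold enrichment, as the authors deposited it, compares the pileup of reads at a summit with that expected from its surroundings, and each value belongs to its own library. The median at the 9 genes was 4.33 in the P3 cortex, 4.79 in the E16 cortex and 5.08 in the E16 basal ganglia, beside 4.42, 5.02 and 4.55 over all regions of those lists. The one region of the E16 bulb had 5.72, beside a list median of 5.25. Ranked by the authors' −log10 q, 3 of the 22 basal ganglia regions and 1 of the 12 E16 cortex regions stood in the strongest 10% of their list, and they lay at Akt1, Igf1, Bdnf and, in the cortex, Akt1.

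**Figure D2:**
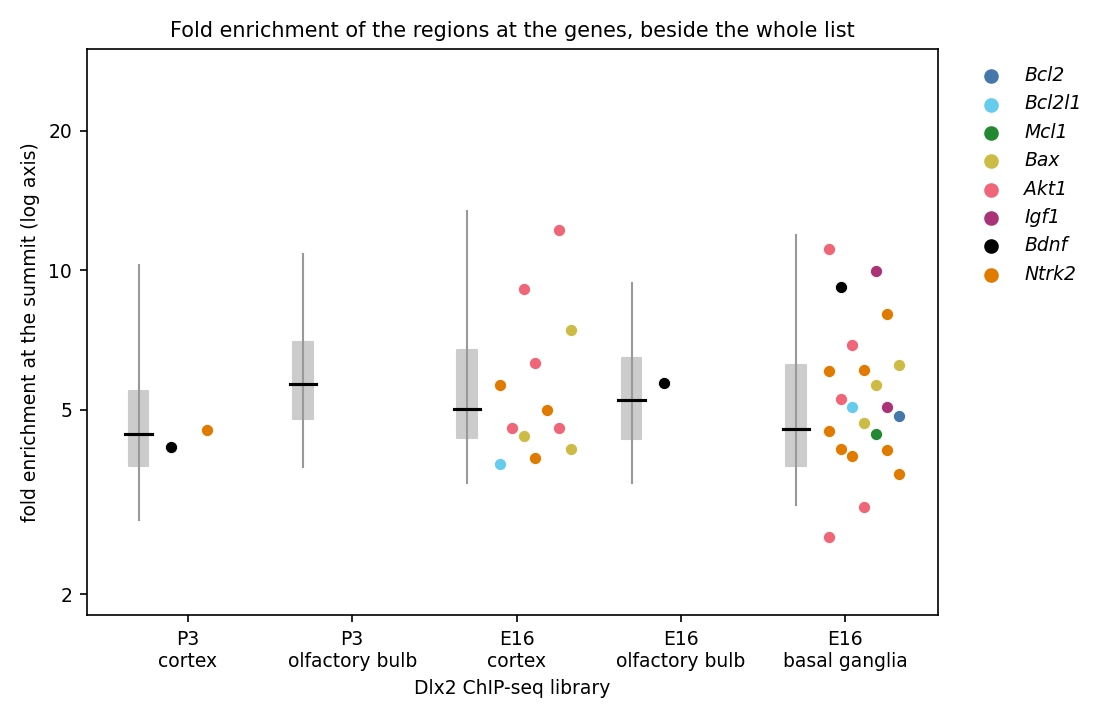
Fold enrichment at the summit (log axis) of the regions at the 9 genes, coloured by gene, in each library. The grey box beside them spans the middle 50% of all regions of that list, its black line is the median and the thin line runs from the 5th to the 95th percentile; the highest values are those of Akt1, 12.2 in the E16 cortex and 11.1 in the E16 basal ganglia.

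Igf1 encodes insulin-like growth factor 1, a secreted survival and growth factor. The gene covers 78.8 kb of chromosome 10 on the plus strand (chr10:87858265-87937047, mm10), and no other protein-coding gene reaches into its 50 kb surroundings. The P3 cortex, P3 bulb, E16 cortex and E16 bulb lists had 0 summits there, and the E16 basal ganglia list had 2. One lay inside the body, 66.2 kb past the annotated start (chr10:87927101-87927555), with a fold enrichment of 5.08 and rank 6300 of 14795. The other lay 48.5 kb past the end of the gene (chr10:87985216-87985879), with a fold enrichment of 9.97 and rank 1366. Igf1 is the protein-coding gene nearest to this second summit, and the next one, Pmch, lies 106 kb from it. The nearest summits of the other lists were 354 kb from the gene in the P3 cortex, 390 kb in the P3 bulb, 1498 kb in the E16 cortex and 389 kb in the E16 bulb.

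Bdnf encodes brain-derived neurotrophic factor, the secreted ligand of the receptor TrkB. It was the member whose region recurred in the most lists. The gene spans chr2:109674700-109727043 on the plus strand, has 7 annotated transcription starts and no other protein-coding gene within 50 kb. A single region inside the gene was present in the P3 cortex (chr2:109697170-109697515), in the E16 bulb (chr2:109697172-109697509) and in the E16 basal ganglia (chr2:109697082-109697658). Its summit lay at 109697304 in the P3 cortex, at 109697372 in the E16 bulb and at 109697370 in the E16 basal ganglia, a spread of 68 bp. This places it 2.9 to 2.96 kb past the nearest annotated start, and 22.6 to 22.7 kb past the first one.

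The fold enrichment of the Bdnf region was 4.15 in the P3 cortex, 5.72 in the E16 bulb and 9.2 in the E16 basal ganglia. Its rank was 1570 of 2139, 720 of 1666 and 1351 of 14795, which is the strongest 73.4%, 43.2% and 9.13% of each list. It was thus weak within the P3 cortex list, near the middle of the E16 bulb list and strong within the E16 basal ganglia list. The P3 bulb list had no summit nearer than 285 kb to the gene and the E16 cortex list none nearer than 2819 kb. Summits in these 3 lists and in no other, by the 50 kb rule, were found at 122 of the 21887 protein-coding genes (0.557%). With the gene body alone, 64 genes (0.292%) had that combination of lists.

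Ntrk2 encodes TrkB, the receptor tyrosine kinase for brain-derived neurotrophic factor. With 327 kb (chr13:58806472-59133970, plus strand) it is the longest of the 9 genes and had the most summits, 12 in all. The P3 cortex had 1, the E16 cortex 3 and the E16 basal ganglia 8, and both bulb lists had 0, with their nearest summits 910 kb away. Among genes from 0.5 to 2 times its length, 32.4% had a summit in the P3 cortex, and 9.34% and 9.77% had at least as many as Ntrk2 in the E16 cortex and E16 basal ganglia. Of all 12, 9 lay inside the gene.

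The strongest Ntrk2 region lay deep inside the gene and was in the P3 cortex and E16 basal ganglia lists and in no other. It had a fold enrichment of 4.51 in the P3 cortex (chr13:58964821-58965225, rank 1234 of 2139) and 8.06 in the E16 basal ganglia (chr13:58964485-58965518, rank 1737 of 14795). The summits were 66 bp apart, 159 kb past the annotated start in the P3 cortex and 158 kb in the E16 basal ganglia. Near the start, the E16 cortex had a summit 3.27 kb past it (fold enrichment 4.997) and the E16 basal ganglia one 2.26 kb past it (4.11). These regions overlapped, with summits 1014 bp apart. The E16 cortex had a further region 38 kb before the gene, with a fold enrichment of 5.65, that was absent from the E16 basal ganglia list.

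The remaining Ntrk2 regions clustered in the last part of the gene and behind it, in the E16 basal ganglia. Inside the gene these had fold enrichments of 6.08, 3.63, 4.1 and 6.06, at 259, 267, 285 and 286 kb past the start. Behind it were summits 10.4 and 14.3 kb from the end, with 3.97 and 4.49, the nearer one inside the noncoding gene Gm34307. The region at 267 kb was also in the E16 cortex list, with a fold enrichment of 3.94 and a summit 206 bp away. It lies at Gm53063, a long noncoding RNA gene on the minus strand within Ntrk2, whose start is covered by the E16 basal ganglia region and not by the E16 cortex region. The summit was 317 bp before the start of Gm53063 in the E16 cortex and 111 bp before it in the E16 basal ganglia. The promoter window of Gm53063, from 250 bases before to 50 after its start (chr13:59073665-59073964, minus strand, GRCm38.p6, RefSeq), is shown because it is the one stretch of reference sequence here that lies under a region at 1 of the 9 genes in both the E16 cortex and the E16 basal ganglia lists. Capitals mark the 67 bases inside the E16 cortex region, and all 300 bases lie inside the E16 basal ganglia region.

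Gm53063: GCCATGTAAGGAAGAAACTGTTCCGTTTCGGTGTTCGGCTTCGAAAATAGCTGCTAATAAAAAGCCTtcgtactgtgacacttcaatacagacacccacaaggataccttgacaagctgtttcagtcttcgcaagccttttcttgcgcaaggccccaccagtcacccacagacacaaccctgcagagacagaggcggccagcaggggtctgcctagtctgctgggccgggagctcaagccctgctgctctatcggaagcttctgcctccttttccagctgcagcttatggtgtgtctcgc

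The letters TAAT, the core shared by many homeodomain sites, were searched on both strands. They occur 1 time in this window, inside the capitals, and at least 1 time in 58% of all 32851 RefSeq promoter windows. A match is a description of letters and not a binding site.

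**Figure D3:**
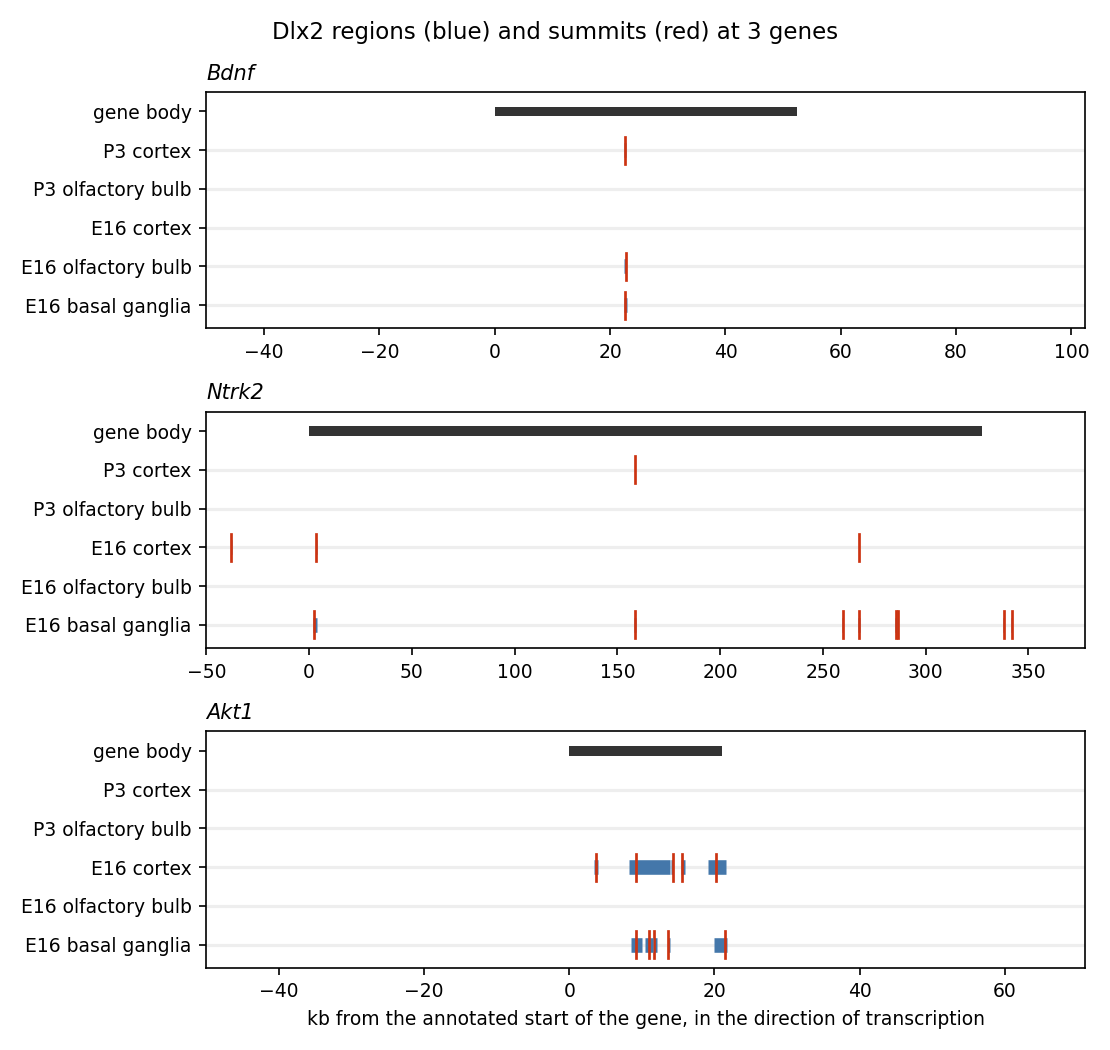
Dlx2 regions (blue) and summits (red) at Bdnf, Ntrk2 and Akt1 in the 5 libraries, by distance in kb from the annotated start of the gene in the direction of transcription; the dark bar is the gene body. At Bdnf the P3 cortex, E16 olfactory bulb and E16 basal ganglia summits fall on the same place, 22.6 to 22.7 kb past the start, and at Akt1 the 10 regions of the E16 cortex and E16 basal ganglia fill much of the gene behind its start.

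Akt1 encodes the serine/threonine kinase through which growth factor receptors restrain cell death. It had 10 summits, 5 in the E16 cortex and 5 in the E16 basal ganglia, and 0 in the other lists. The gene is short, 21.1 kb on the minus strand (chr12:112653821-112674884), and 9 of the 10 summits lay in its body. Having that many summits in the body was uncommon among genes from 0.5 to 2 times its length, at 1.01% for the 5 of the E16 cortex and 1.64% for the 4 of the E16 basal ganglia. Of those 4, 2 were among the weakest of their list, with −log10 q of 3.46 and 2.29. By the 50 kb rule, the E16 basal ganglia count of 5 was 3 with −log10 q of at least 5. Without regions wider than 1 kb it was 3 in the E16 cortex and 2 in the E16 basal ganglia. The strongest region was the same in both lists. Its fold enrichment was 12.2 in the E16 cortex (chr12:112660948-112666586, rank 360 of 6333) and 11.1 in the E16 basal ganglia (chr12:112664807-112666315, rank 1033 of 14795).

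Some of the Akt1 regions were wider than 1 kb, and at the strongest the E16 cortex called as one what the E16 basal ganglia list divided. The strongest E16 cortex region spanned 5639 bp and overlapped 4 basal ganglia regions of 308, 403, 1108 and 1509 bp. Besides the strongest, these had fold enrichments of 3.08, 2.65 and 5.28. At the end of the gene, the E16 cortex had a region of 2445 bp with its summit in the body (fold enrichment 9.11). It overlapped an E16 basal ganglia region of 1750 bp (6.9), whose summit lay 368 bp past the end. The nearest start of the gene lay 3.03 kb from the closest summit, that of an E16 cortex region with a fold enrichment of 6.29. No region of these lists overlapped the promoter windows of Akt1.

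The other 2 Akt1 regions of the E16 cortex had fold enrichments of 4.58 and 4.56. The summit of the first, at position 112659296, fell inside Mir6939, a microRNA gene on the minus strand within Akt1 (chr12:112659277-112659351, GRCm38.p6, RefSeq). Its hairpin of 75 bases is shown because this summit falls inside it. Capitals mark the 3p arm, and the summit lies on base 1 of that arm, base 56 of the hairpin.

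Mir6939: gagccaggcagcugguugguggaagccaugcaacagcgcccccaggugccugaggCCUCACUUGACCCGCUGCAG

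The 3 anti-death members had 1 or 2 regions each over the 5 lists. Bcl2 encodes the founding member of the BCL-2 family, which holds back BAX and BAK at the mitochondrion. Its body of 176 kb on the minus strand (chr1:106538176-106714290) held 0 summits in all 5 lists, whereas 47.4% of genes from 0.5 to 2 times its length held one in the E16 basal ganglia. The 1 region assigned to it, in the E16 basal ganglia (chr1:106759822-106760167, fold enrichment 4.84, rank 6624), lay 45.7 kb upstream. That summit was 265 bp before the start of the neighbouring gene Kdsr, which encodes a reductase of ceramide synthesis. The Kdsr promoter window is shown because the region assigned to Bcl2 covers part of it, the summit lying just before its first base (chr1:106759693-106759992, minus strand, GRCm38.p6, RefSeq). Capitals mark the 171 bases inside the region.

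Kdsr: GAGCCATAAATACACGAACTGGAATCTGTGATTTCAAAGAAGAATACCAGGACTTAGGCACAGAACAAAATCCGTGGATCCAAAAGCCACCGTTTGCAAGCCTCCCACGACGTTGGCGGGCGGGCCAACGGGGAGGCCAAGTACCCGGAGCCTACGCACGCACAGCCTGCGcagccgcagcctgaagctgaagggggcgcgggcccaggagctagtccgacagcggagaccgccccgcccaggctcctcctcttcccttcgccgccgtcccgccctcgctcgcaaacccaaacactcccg

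This window is 62.7% G and C with 26 CpG dinucleotides, against medians of 52.7% and 7 over all promoter windows, and TAAT occurs in it 0 times.

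Bcl2l1 encodes BCL-XL, another inhibitor of BAX and BAK (chr2:152758732-152833803, minus strand, 3 annotated starts). One region inside the gene was called in both the E16 cortex and the E16 basal ganglia. Its fold enrichment was 3.81 in the E16 cortex (chr2:152829379-152829811, rank 5263 of 6333) and 5.08 in the E16 basal ganglia (chr2:152829346-152829835, rank 6300 of 14795). The summits were 231 bp apart and lay between annotated starts, 0.935 kb past one in the E16 cortex and 1.06 kb before another in the E16 basal ganglia. The E16 cortex summit was the one of the 37 that lay within 1 kb of a start of its own gene. Stronger regions lay just outside the 50 kb limit, 51.1 kb past the end of Bcl2l1 and inside the neighbouring gene H13, with fold enrichments of 14 in the E16 cortex and 11.2 in the E16 basal ganglia.

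Mcl1 encodes a short-lived inhibitor of the same kind (chr3:95656944-95663179, plus strand). It had 1 region, in the E16 basal ganglia, inside the gene and 2.06 kb past its annotated start (chr3:95660445-95660988). The fold enrichment was 4.44, close to the list median of 4.55, and the rank 7289 of 14795. The nearest summits in the other lists lay 266 to 439 kb from the gene.

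Neither pro-death member had a summit inside its body in any of the 5 lists, as was the case for 17107 of 21887 protein-coding genes (78.2%). Bcl2l11 encodes BIM, a BH3-only protein that binds the anti-death members when survival signals are withdrawn (chr2:128126038-128162547, plus strand). It was the one gene of the 9 with 0 summits in every list. Its nearest summits were 566 kb away in the P3 cortex and the E16 basal ganglia, 4310 kb in the P3 bulb, 1978 kb in the E16 cortex and 1056 kb in the E16 bulb. By the same rule 11006 of 21887 protein-coding genes (50.3%) had a summit in none of the 5 lists.

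Bax encodes the pore-forming effector on which much developmental neuron death depends. Its body of 5.21 kb (chr7:45461695-45466903, minus strand) held 0 summits in all 5 lists, but 8 other protein-coding genes reach into its surroundings. The window held 3 summits in the E16 cortex and 3 in the E16 basal ganglia, all past the end of Bax. A region between Bax and the ferritin light chain gene Ftl1 had its summit 0.626 kb from Bax in the E16 cortex (fold enrichment 4.12) and 0.693 kb in the E16 basal ganglia (5.67). These summits were 67 bp apart, and Bax was the nearest protein-coding gene. A wide region at Ftl1 and the glycogen synthase gene Gys1 spanned 3110 bp in the E16 cortex (7.44) and 2474 bp in the E16 basal ganglia (6.25). The basal ganglia summit lay inside Ftl1 and the cortex summit 485 bp from Gys1. The remaining summits were inside Lhb, 41.6 kb from Bax, in the E16 cortex (4.39) and inside Gys1, 5.8 kb from it, in the E16 basal ganglia (4.69).

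Joining the overlapping regions of different lists left 24 places, of which 15 were in 1 list, 8 in 2 and 1, that of Bdnf, in 3. The E16 cortex and E16 basal ganglia alone held 7 of the 9 shared places. Of the 12 E16 cortex regions 7 overlapped an E16 basal ganglia region (58.3%, exact interval 27.7 to 84.8), beside 61.5% for the whole cortex list. In the other direction, 10 of the 22 E16 basal ganglia regions met one of the cortex list (45.5%, 24.4 to 67.8), beside 26.4% for the whole list. Of these 10, 4 lie under the same wide E16 cortex region at Akt1. The interval treats them as separate, so the 45.5% does not show more sharing than in the whole list. Both P3 cortex regions overlapped an E16 basal ganglia region (exact interval 15.8 to 100%), beside 30.9% for the whole P3 list. An E16 cortex region was overlapped by 0 of these 2 (0 to 84.2%), beside 5.14% for the whole P3 list.

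The promoter windows of the 9 genes number 19, and 0 of them overlapped a region of any list. Over all promoter windows the share overlapped was 0.791% in the P3 cortex, 0.192% in the P3 bulb, 1.13% in the cortex at E16, 0.277% in the bulb at E16 and 3.19% in the basal ganglia, so a count of 0 of 19 is near this background. The homeodomain letters TAATTA, read the same on both strands, were in 0 of the 19 windows, and in 5.29% of all windows. TAAT on either strand was in 9 of the 19, at Bax, Bcl2l1, Bdnf and Ntrk2, beside 58% of all windows. Of the 9 genes, Bdnf alone has 7 annotated starts, so these windows are not 1 per gene.

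Other genes of these pathways were counted by the same rule, in 6 lists with 107 genes that do not include the 9. The regions are not all separate from those above. Some counted at Bax and Akt1 count here again for another gene, and some regions count for more than a single gene of the 107. In the P3 cortex 20 of the 107 (18.7%) had a summit and in the P3 bulb 6 (5.61%). At E16 the numbers were 42 (39.3%) in the cortex, 7 (6.54%) in the bulb and 56 (52.3%) in the basal ganglia. The shares over all protein-coding genes were those given above, 12.4%, 3.98%, 28.7%, 6.62% and 42.4%.

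The genes were grouped by role. Of 33 genes of the IGF, PI3 kinase and AKT pathway, 8 had a summit in the P3 cortex, 4 in the P3 bulb, 19 in the E16 cortex, 3 in the E16 olfactory bulb and 21 in the E16 basal ganglia. Among the strongest were those at Akt2, an AKT kinase gene (fold enrichment 19 in the E16 basal ganglia, 17.5 kb outside the gene), and at Pik3r2, a regulatory subunit of PI3 kinase (20.8 in the E16 cortex, 10.2 kb outside). Of 16 p53 and JNK stress genes, 4, 0, 10, 2 and 11 had a summit, in the same order of lists. Its leading genes were Mapk10, which encodes the neuronal kinase JNK3 (11.3 inside the gene in the E16 basal ganglia), Siva1, whose region is the strong one inside Akt1, and Atf4, a stress transcription factor gene (8.06 inside the gene in the E16 cortex).

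Counts were also made for the genes that carry out or block death. Of 17 caspase and apoptosome genes 1, 1, 1, 1 and 5 had a summit, led by Cradd, an adaptor of caspase 2 (7.82 inside the gene in the E16 basal ganglia), Dffb, a nuclease gene (7.23, 35.4 kb outside) and Casp8 (6.32 in the P3 cortex, 48.1 kb outside and inside its neighbour Cflar). Of 8 genes for inhibitors of apoptosis 1, 0, 0, 0 and 5 had one, led by Birc2 (10.8, 21.7 kb outside) and Birc7 (5.56, 34.3 kb outside), both in the E16 basal ganglia, and by Cflar. Of the other 19 BCL-2 family genes 4, 0, 6, 0 and 7 had one. The summits nearest the top of their lists were those at Bbc3 (10.8 in the E16 cortex, 34.1 kb outside), Pmaip1 (8.23 in the P3 cortex, 32 kb outside) and Bcl2l2 (9.54 in the E16 cortex, 7.68 kb outside), and inside the gene body of these 19 there was a summit at 1, Bok in the E16 basal ganglia. Of 14 neurotrophins and receptors 2, 1, 6, 1 and 7 had a summit. Whether these shares differ between the gene lists was not tested.

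**Figure D4:**
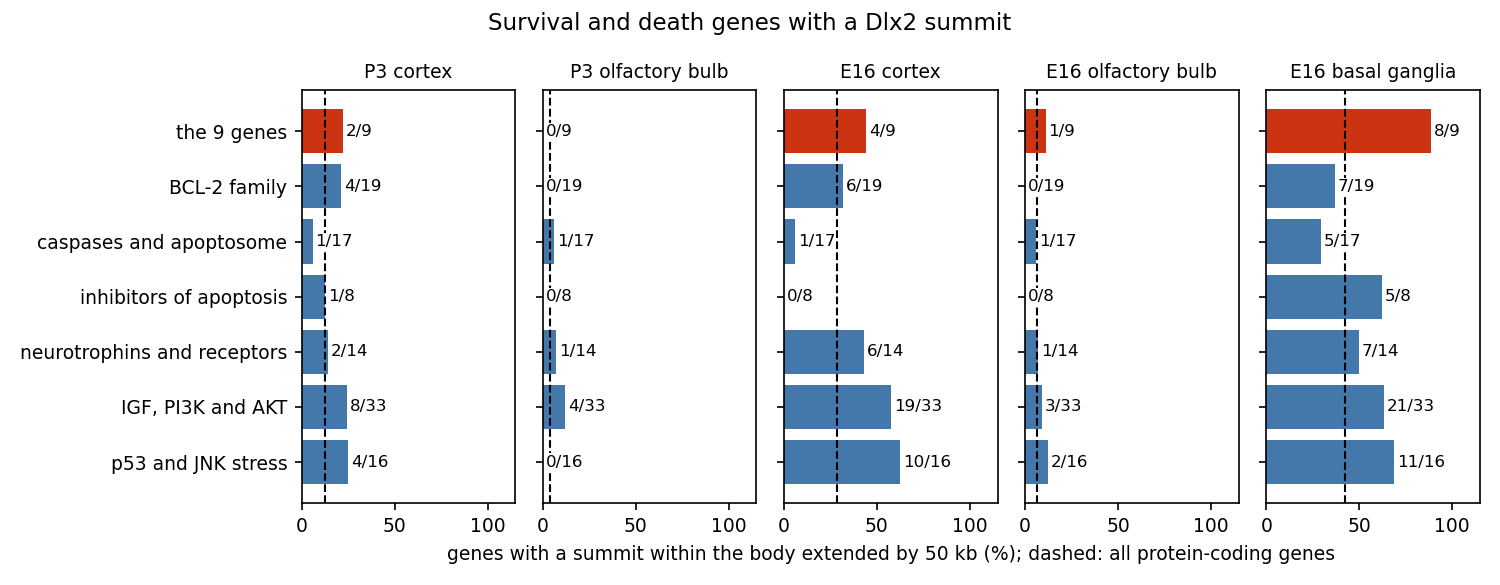
Percent of genes with a Dlx2 summit within the gene body extended by 50 kb, for the 9 genes (red) and 6 lists of other survival and death genes (blue), by library; the number beside each bar is the count of genes. The dashed line is the share of all protein-coding genes, 12.4%, 3.98%, 28.7%, 6.62% and 42.4% from left to right; the 9 genes in the E16 basal ganglia (8 of 9) lie farthest above it.

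Markers of cell types were counted by the same rule. Of 10 GABAergic neuron genes, among them the Dlx genes, Gad1 and Gad2, 6 had a summit in the P3 cortex, 4 in the P3 bulb, 10 in the E16 cortex, 8 in the E16 olfactory bulb and 10 in the E16 basal ganglia. Dlx1 and Dlx2 are neighbours, as are Dlx5 and Dlx6, and each pair shares summits, so these counts are not of separate places. The GABAergic shares were 60%, 40%, 100%, 80% and 100%, beside 12.4%, 3.98%, 28.7%, 6.62% and 42.4% of all protein-coding genes. Of 10 glutamatergic neuron genes, the number with a summit was 2, 1, 10, 2 and 9 in the same order of lists. Of 8 oligodendrocyte genes it was 0, 0, 5, 0 and 6. Of 6 astrocyte genes it was 0, 0, 1, 1 and 1, of 6 microglia genes 0, 0, 2, 0 and 3, and of 6 endothelial and mural genes 1, 0, 0, 1 and 1. Of 8 liver and muscle genes it was 0, 1, 1, 2 and 3. In the E16 cortex and E16 basal ganglia, 28.7% and 42.4% of all protein-coding genes had a summit. The GABAergic list (100% and 100%), the glutamatergic list (100% and 90%) and the oligodendrocyte list (62.5% and 75%) stood higher. The oligodendrocyte genes held 0 summits inside their bodies in both lists. The microglia list, with 6 genes, had 33.3% in the E16 cortex and 50% in the E16 basal ganglia, also above the shares of all protein-coding genes. The astrocyte, endothelial and mural, and liver and muscle lists had 0 to 16.7% in the E16 cortex and 16.7 to 37.5% in the E16 basal ganglia. The part of other cell types in the counts at the 9 genes was not tested.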

How the data were processed

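Per the submitters' processing notes, the tools were MACS2, Bowtie2, Trimmomatic and SAMtools (no versions stated) and the build mm10. The authors deposited 1 narrowPeak list of called regions for each Dlx2 library. Which threshold and control each call used, and how deeply each library was sequenced, is not given in the sources used here. Fold enrichment, as deposited, is a ratio of the pileup at the summit to the local expectation. The authors' −log10 p and −log10 q are those of MACS2 at the summit, and the q-value ranked regions within a list. The deposited score column was not used. The names of all regions carry a mark for duplicate removal except those of the P3 cortex (0 of 2139), where duplicates may have been kept.

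Coordinates count from 1. Genes, strands, transcription starts and sequences are those of RefSeq for GRCm38.p6, the build of mm10. All 9 genes and 107 pathway genes matched by symbol. Exons were not used here. Summits within a gene body extended by 50 kb were counted with Python 3.11.15, pandas 2.3.3 and numpy 2.4.6, and intervals with scipy 1.17.1. Counting was tested on simulated data with 200 planted genes. The 3 genes of each pathway list whose best summit ranked highest in any library are named, except 1 that is not reported here. The 9 genes, the gene lists and the rules were chosen with earlier results of these data known. Alternatives were other extensions, stricter thresholds, narrower regions and other overlaps. Input libraries were not analysed here.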

Additional observations from a re-analysis of the deposited data

Results flagged for a closer look

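The Bdnf region drew attention because its presence by age ran in opposite directions in the tissues with both ages. In the cortex the P3 list had 1 summit and the E16 list 0, a difference of 1 for P3 minus E16. Among the 734 strongest regions of the P3 cortex list, Bdnf had 0 summits. The mark for duplicate removal is on 0 of 2139 region names in the P3 cortex and on 6333 of 6333 in the E16 cortex. The effect of duplicate removal on this difference was not tested. In the olfactory bulb the P3 list had 0 and the E16 list 1, a difference of -1. Most regions of the P3 cortex and E16 bulb lists were likewise without a counterpart in their tissue at the other age. Sharing with the E16 cortex reached 5.14% of the whole P3 cortex list. Sharing with the P3 bulb reached 31.6% of the whole E16 bulb list. The difference between the tissues was not tested, each value rests on 1 library, and in neither of these lists was the region among the strongest 10% (fold enrichment 4.15 in the P3 cortex and 5.72 in the E16 bulb).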

How the results depend on the processing

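No paired analysis was possible because each group has 1 library. Over the counts of genes and of summits at the 9 genes in each of the 5 lists, and of places shared by lists, 49 of the 59 alternative values that were not 0 against 0 stayed within 1.5 times the reported one. Without the extension the E16 basal ganglia list held 14 summits in place of 22, and with 100 kb the E16 cortex list held 21 in place of 12. When each list was limited to its 734 strongest regions, the length of the P3 bulb list, the P3 cortex and the E16 basal ganglia held 0 summits at 0 genes and the E16 cortex 1 summit at 1 gene (Akt1), while the E16 bulb kept its count of 1. The E16 basal ganglia count of 8 genes therefore rests on regions outside the strongest 734 of that list. Places shared by lists numbered 5 when the overlap had to cover 50% of each region and 4 when summits had to lie within 200 bp, in place of 9. For the single genes 79 of 105 such values stayed within 1.5 times and 26 did not. Depth is unknown, so lists of 734 to 14795 regions cannot be set to 1 depth.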

Other observations

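A few other genes of these pathways had regions that recurred between lists, or had several summits. Gfra1, which encodes the receptor for glial cell line-derived neurotrophic factor, had a region inside the gene in both bulb lists, with its summit at position 58301037 of chromosome 19 and a fold enrichment of 7.64 at P3, and at 58301006 and 10.8 at E16. This region ranked 132 of 734 at P3 and 55 of 1666 at E16. Gfra1 also had 1 summit inside the gene in the P3 cortex and 4 in the E16 basal ganglia. Mapk10 had a region inside the gene with its summit at position 103161119 of chromosome 5 in the P3 cortex (fold enrichment 5.1) and at 103161177 in the E16 basal ganglia (11.3). In the E16 bulb, Mapk10 had 2 summits inside the gene. The strongest Akt2 region had its summit at 27658310 of chromosome 7 in the E16 cortex (19.7) and at 27658301 in the E16 basal ganglia (19). Sort1, which encodes the neurotrophin co-receptor sortilin, had 2 summits in the P3 cortex, 12 in the E16 cortex and 9 in the E16 basal ganglia. Of these, 2, 5 and 2 lay inside the gene. The strongest of them was 44.9 kb outside the gene in the E16 cortex (21.7). Cntfr, which encodes a receptor for ciliary neurotrophic factor, had 9 in the E16 cortex and 8 in the E16 basal ganglia. Its strongest summits lay at different positions of chromosome 4, 41660897 in the E16 cortex and 41684810 in the E16 basal ganglia. Whether other Cntfr regions overlapped between these lists was not tested.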
